A study of Drosophila melanogaster with 4 samples.

Results

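Arm 2L is the left arm of the second chromosome of Drosophila melanogaster, and the regions described here are the H3K27me1 clusters of that arm whose midpoint lies between base 1 and base 21000000, so that the stretch next to the centromere is left out. A cluster is a region of significant H3K27me1 enrichment in the lists that the authors deposited, given in coordinates of FlyBase genome release 5. The rule found 1060 of the 6501 clusters of ChIP replicate 1, 1115 of the 6601 clusters of ChIP replicate 2 and 1600 of the 9662 clusters of the authors' list for the set of both replicates. Position alone chose the members, and no measured value was used. Past the limit the arm held 68, 76 and 83 further clusters in replicate 1, replicate 2 and the set list.

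Lysine 27 of histone H3 can be mono-, di- or trimethylated, and in flies the methylated forms are made by the Polycomb repressive complex PRC2, whose catalytic subunit is E(z). The trimethylated form marks genes silenced by Polycomb proteins, whereas the monomethylated form, H3K27me1, has been described over the bodies of transcribed genes in mouse embryonic stem cells. Histone marks of this kind are mapped by immunoprecipitating fixed, fragmented chromatin with an antibody and sequencing the recovered DNA (ChIP-seq), with unprecipitated chromatin (Input) as the reference.

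The chromatin came from nuclei of heads of wild-type Oregon-R flies, labelled as mixed adults and kept in cages run on an adult cycle of 22 days, and the antibody against H3K27me1 was from Millipore. The series holds 2 ChIP and 2 Input libraries from the same strain, genotype, stage and tissue, and each Input library served 1 ChIP list. No second condition was profiled, so the comparisons made here are between the ChIP replicates and between 2L and the arms of the third chromosome, 3L and 3R. The labels do not tell if separate fly collections were used for the replicates, so differences between them may be technical. A head holds many cell types, and a cluster present in fewer cells cannot be told apart from one with less H3K27me1 per cell.

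With 2 ChIP libraries, an exact test over libraries of any difference between arms cannot give a two-sided p below 0.5, and clusters of 1 library are not replicates. Values are therefore given for each replicate without a test across libraries. The lists give no read numbers, and the depth behind each cluster is unknown. The score of each cluster is the authors' value and has no stated unit. Among the 20 top scores of each whole list, 51.6% (replicate 1) and 52.1% (replicate 2) of the 190 pairwise differences matched log2 of a simple fraction, whose denominator was limited to 50, to within 1e-06. None of the 190 differences among the 20 top scores of 2L did so in either replicate (0%), so the scale could not be read from the 2L scores themselves. Scores are used below to order clusters, and no fold enrichment is derived from them.

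On 2L, H3K27me1 lay mostly in clusters of a few kilobases that together took up 19.1% of the sequence in replicate 1 and 18.7% in replicate 2. Replicate 1 held 1060 clusters, or 50.5 per Mb, and replicate 2 held 1115, or 53.1 per Mb, with a mean of 1087.5 ± 38.9 (SD, n = 2) per library. The clusters summed to 4.01 Mb of the 21 Mb in replicate 1 and to 3.92 Mb in replicate 2. Replicate 2 therefore had more clusters and less covered sequence.

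Widths ran from 1302 to 25597 bp in replicate 1, with a median of 2873 bp and quartiles of 1854 and 4584 bp. In replicate 2 they ran from 1301 to 21050 bp, with a median of 2616 bp and quartiles of 1806 and 4270 bp. Clusters under 2 kb made up 30.1% of the clusters in replicate 1 and 32.1% in replicate 2, but held only 12.8% and 14.6% of the summed width. Broad clusters, at least 10 kb wide, were few, with 50 in replicate 1 and 39 in replicate 2. They held 16.9% of the summed width in replicate 1 and 13.0% in replicate 2.

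Scores ran from 0.27 to 1.65 in replicate 1, with a median of 0.70, and from 0.30 to 1.59 in replicate 2, with a median of 0.69. The median score was higher in each wider class. In replicate 1 it was 0.55 for clusters under 2 kb, 0.73 for those of 2 to 5 kb, 0.93 for those of 5 to 10 kb and 1.02 for those of 10 kb or more, and in replicate 2 it was 0.56, 0.72, 0.94 and 1.02 in the same order. Spearman's rho between width and score across clusters, which share a library and are not independent, was 0.790 in replicate 1 and 0.795 in replicate 2.

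The limit at 21000000 cut through a region that carried clusters on both sides. In replicate 1 the last 2 clusters inside, from 20993175 to 20996829 and from 20997779 to 21000693, scored 0.57 and 0.74. The first 2 outside, from 21001288 to 21008621 and from 21010926 to 21012494, scored 0.78 and 0.57. In replicate 2 the last 2 inside measured 5.68 and 3.66 kb and scored 0.65 and 0.76, and the first 2 outside measured 4.01 and 5.18 kb and scored 0.66 and 0.70. In the set list the last 2 inside measured 2.44 and 13.3 kb and scored 0.50 and 0.57, and the first 2 outside measured 23.3 and 5.31 kb and scored 0.64 and 0.58. The scores on both sides of the limit lay in the same range.

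Fewer clusters per Mb, and a smaller covered share, were found on 2L than on either arm of the third chromosome in both replicates. In replicate 1 there were 50.5 clusters per Mb on 2L, against 55.7 on 3L and 53.5 on 3R, and in replicate 2 there were 53.1 on 2L, against 58.9 on 3L and 56.5 on 3R. The covered share in replicate 1 was 19.1% on 2L, against 21.4% on 3L and 21.2% on 3R, and in replicate 2 it was 18.7% on 2L, against 21.1% on 3L and 21.2% on 3R. Relative to 3L and 3R together, 2L had 0.924 ± 0.0029 times the clusters per Mb and 0.890 ± 0.0091 times the covered share (SD, n = 2). The values of 3L and 3R include their centromere ends, whereas that of 2L was left out. Without a stretch of equal length at that end, 3L had 58.8 and 62.0 clusters per Mb and 3R had 52.1 and 55.4. By covered share, the set list gave 28.8% on 2L, against 31.8% on 3L and 31.1% on 3R. In the set list 2L had 76.2 clusters per Mb, against 80.0 on 3L and 78.1 on 3R. Without its centromere end 3R also had 76.2 there, so the difference in density from 3R was not seen in that list.

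Median widths and scores of the clusters were close on 2L and on the third chromosome. Median widths were 2873 bp on 2L and 2821 bp on 3L and 3R together in replicate 1, and 2616 bp on 2L and 2668.5 bp on 3L and 3R in replicate 2. The signs of these differences are opposite in the replicates. Median scores were 0.70 on 2L and 0.70 on 3L and 3R in replicate 1, and 0.69 on 2L and 0.69 on 3L and 3R in replicate 2. At the broad end the values lay further apart. Clusters of 10 kb or more were found at 2.38 per Mb on 2L, against 2.71 per Mb on 3L and 3R in replicate 1, and at 1.86 per Mb on 2L, against 2.46 per Mb on 3L and 3R in replicate 2. The widest cluster of 2L measured 25.6 kb in replicate 1 and 21.1 kb in replicate 2. On 3L the widest measured 54028 and 29075 bp, and on 3R 34418 and 28593 bp. Without its centromere end, 3R had a widest cluster of 27315 and 27331 bp. These are single clusters, and each third-chromosome arm held more clusters than 2L, which favours a wider maximum there.

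**Figure D1:**
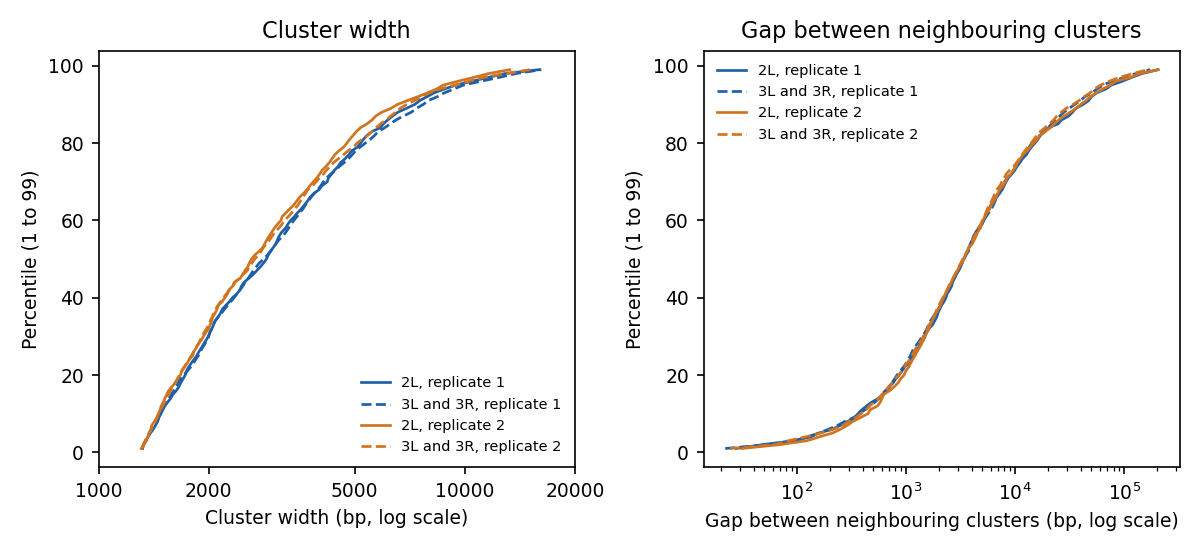
Percentiles 1 to 99 (vertical axis) of cluster width and of the gap between neighbouring clusters (horizontal axes, bp on a log scale), for 2L (solid) and for 3L and 3R together (dashed) in ChIP replicates 1 and 2. The curves lie close together, with median widths between 2616 and 2873 bp and median gaps between 3315 and 3407 bp, and the replicate 2 width curve of 2L lies left of the dashed one at its upper end.

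Gaps between neighbouring clusters on 2L were mostly of a few kilobases, and a small part of them were 100 kb or longer. The median gap between neighbours was 3397 bp in replicate 1 and 3392.5 bp in replicate 2, and 238 gaps in each replicate (22.5% and 21.4%) were shorter than 1 kb. On 3L and 3R the medians were 3407 and 3315 bp, with 23.0% and 22.7% of gaps under 1 kb. On 2L, 40 of 1059 gaps in replicate 1 and 37 of 1114 in replicate 2 were at least 100 kb long, against 88 of 2858 and 82 of 3020 on 3L and 3R. Those of 2L took up 7164.5 kb and 6627.5 kb of the 21 Mb. The 90th percentile of the gaps was 42052 bp on 2L, against 35226 bp on 3L and 3R in replicate 1, and 39951 bp on 2L, against 34066 bp on 3L and 3R in replicate 2. The longest single gap was 452712 bp on 2L in replicate 1, against 505935 bp on 3L and 404376 bp on 3R. In replicate 2 it was 398863 bp on 2L, against 506024 bp on 3L and 404484 bp on 3R. A longest gap depends on the number of gaps compared, which was larger on 3L and on 3R.

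Joining neighbours less than 1 kb apart put 428 of the replicate 1 clusters (40.4%) into 190 runs of 2 or more, and 415 of the replicate 2 clusters (37.2%) into 177 runs. Runs of 3 or more numbered 37 and 43. The run with the most clusters in replicate 1 had 6 clusters over 29.8 kb, from 8638849 to 8668653, and 95.9% of its span lay in clusters. In replicate 2 it had 6 clusters over 22.5 kb, from 1064419 to 1086878, and 89.8% of its span lay in clusters. The next run in replicate 1 held 5 clusters over 18.6 kb, from 442414 to 461038. In replicate 2 the next held 5 clusters over 18.0 kb, from 12485263 to 12503252. Replicate 1 held this last region as the single cluster from 12485242 to 12503749, so a run in one list can be a single domain in the other.

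Isolated clusters were narrower and less often found in both replicates. Clusters whose nearest neighbour lay 20 kb or more away numbered 39 in replicate 1 and 47 in replicate 2, with median widths of 2260 and 1930 bp. Those with a neighbour 1 to 5 kb away had median widths of 3085 and 2866 bp, the widest of the 4 classes. With a neighbour under 1 kb away the medians were 2834 and 2551 bp, and at 5 to 20 kb they were 2447 and 2584 bp. The share found in the other replicate was 66.7% for the isolated clusters of replicate 1 (exact 95% binomial interval 49.8% to 80.9%), against 84.0% (80.2% to 87.4%) with a neighbour 1 to 5 kb away. In replicate 2 these shares were 57.4% (42.2% to 71.7%) and 83.7% (80.1% to 86.9%). Narrow clusters were also less often found in both replicates, as given below, and the part of width in this difference was not tested. The intervals cover counting error over clusters only.

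Along the arm the mean covered share of 1 Mb blocks ranged from 7.93% to 35.6%, with a Pearson's r of 0.991 between the replicates over the 21 blocks. The most covered block ran from 8000001 to 9000000, with 87 clusters over 36.2% of its length in replicate 1 and 93 clusters over 35.1% in replicate 2, averaging 35.6% ± 0.742 (SD, n = 2). The blocks from 6000001 to 7000000 and from 7000001 to 8000000 came next, at 24.5% ± 0.348 and 24.3% ± 1.16. At the other end, the block from 15000001 to 16000000 held 19 clusters over 7.55% in replicate 1 and 27 clusters over 8.32% in replicate 2, averaging 7.93% ± 0.549. Its neighbour from 14000001 to 15000000 was covered to 9.65% ± 0.544, and the block from 17000001 to 18000000 to 10.3% ± 0.0832. In none of the 21 blocks did the SD between replicates exceed 1.24 percentage points, which is small beside the distance between the most and the least covered blocks.

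Coverage was lowest on the centromere-side 7 Mb of the described stretch. From 14000001 to 21000000 the covered share was 15.1% in both replicates, against 21.7% and 20.6% from 7000001 to 14000000 and 20.4% and 20.2% from 1 to 7000000, in replicate 1 and replicate 2. Coverage did not fall steadily towards the limit. The block from 19000001 to 20000000 was covered to 22.2% ± 0.137 and that from 20000001 to 21000000 to 20.5% ± 0.165 (SD, n = 2). The number of clusters was 274 and 302 in the centromere-side 7 Mb, 396 and 403 in the middle 7 Mb, and 390 and 410 in the telomere-side 7 Mb. Broad clusters had another order, with 17 and 14 on the centromere side, 19 and 14 in the middle, and 14 and 11 on the telomere side. The arm's first cluster began 14.8 kb from the first base in replicate 1 and 21.4 kb from it in replicate 2.

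**Figure D2:**
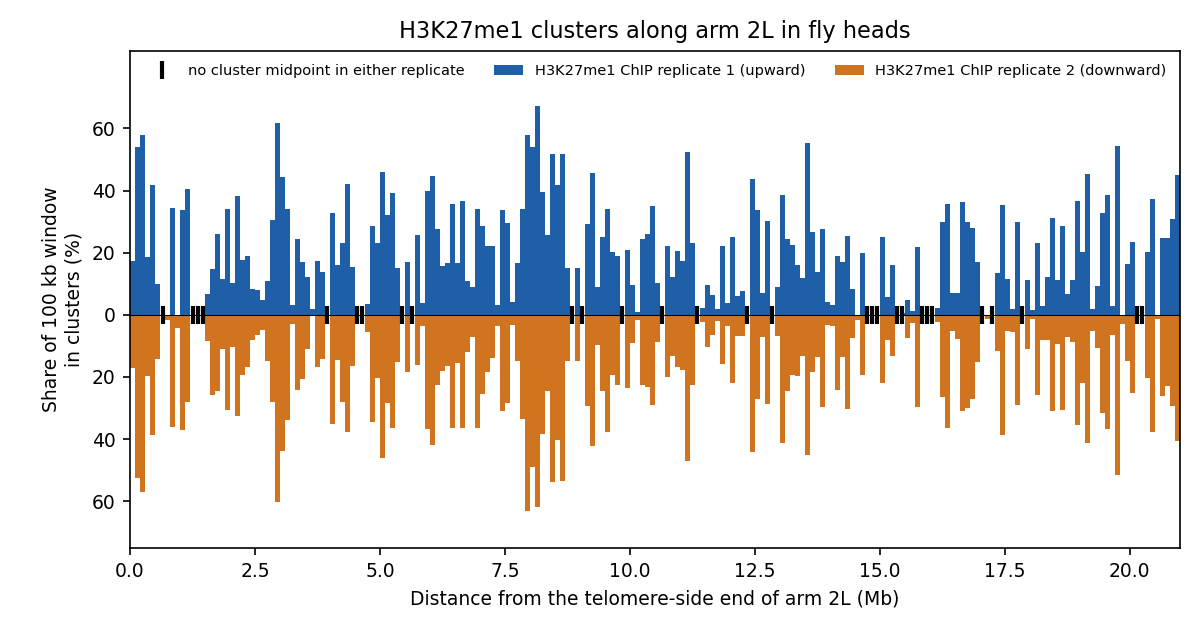
Share of each 100 kb window of 2L lying in H3K27me1 clusters (vertical axis, %), against distance from the telomere-side end of the arm (horizontal axis, Mb), for ChIP replicate 1 (upward) and replicate 2 (downward), with black marks at windows that held no cluster midpoint in either. The profiles mirror each other, with the highest windows near 8 Mb (67.2% in replicate 1 and 63.0% in replicate 2) and 29 marked windows, of which several adjoin between 14 and 17 Mb.

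At the scale of 100 kb, 18 of the 210 windows of 2L were dense, with 10 or more cluster midpoints in both replicates. That is 8.57% of the windows, against 14.9% of the 524 full windows of 3L and 3R. The number depends on where the windows begin. With windows shifted by 50 kb, 26 were dense on 2L, and no shifted count is given for 3L and 3R. Counted in each replicate alone, 30 and 34 windows of 2L were dense, or 14.3% and 16.2%, against 18.3% and 19.7% on 3L and 3R. In the set list 37.1% of the 2L windows were dense, which was below the 41.2% of 3L but above the 35.1% of 3R. By the mean of both replicates, the window with the most clusters ran from 13500001 to 13600000. It held 16 in each replicate, over 55.2% and 45.1% of its length. The window from 8600001 to 8700000 held 13 and 17 clusters, over 51.7% and 53.4%. The window from 20900001 to 21000000, next to the limit, held 16 and 14, and that from 4000001 to 4100000 held 12 and 18.

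The number of clusters in a window and the share it covered could differ. The window from 8100001 to 8200000 had the highest mean coverage, at 67.2% by 13 clusters in replicate 1 and 61.8% by 12 clusters in replicate 2. The window from 200001 to 300000, near the telomere, reached 57.9% and 56.9% with only 9 clusters in each replicate. The window from 4800001 to 4900000 held 12 and 14 clusters that covered only 28.6% and 34.5%. Dense windows in both replicates adjoined at 2 places, from 2900001 to 3200000 with 33 and 34 clusters, and from 8400001 to 8700000 with 38 and 42 clusters. In windows with 10 or more clusters the median cluster width was 2734 bp in replicate 1 and 2443 bp in replicate 2. It was 2909 and 2847 bp in windows with 4 to 9 clusters, and 2887 and 2502 bp in windows with 1 to 3. The median width thus did not change steadily with the number of clusters.

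Windows without any cluster midpoint in either replicate numbered 29, or 13.8% of the windows of 2L, against 9.92% on 3L and 3R. Counted in each replicate by itself, 35 windows were empty in replicate 1 and 31 in replicate 2. In 28 of the 210 windows no base was covered in either replicate. The empty windows lay singly at 14 places and in 6 runs of 2 or 3 windows. The runs of 3 were from 1200001 to 1500000, from 14700001 to 15000000 and from 15800001 to 16100000. The runs of 2 were from 4500001 to 4700000, from 15300001 to 15500000 and from 20100001 to 20300000. The centromere-side 7 Mb held 13 of the 29 empty windows and 3 of the 18 dense ones, the middle 7 Mb held 7 and 7, and the telomere-side 7 Mb held 9 and 8.

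**Figure D3:**
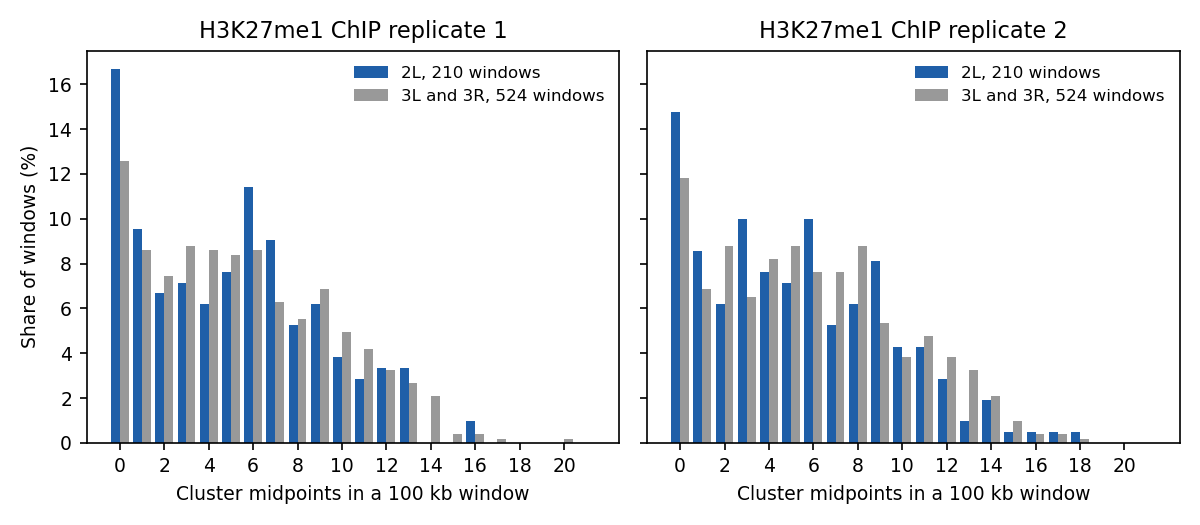
Share of 100 kb windows (vertical axis, %) by the number of cluster midpoints they held (horizontal axis), for the 210 windows of 2L and the 524 windows of 3L and 3R, in ChIP replicate 1 (left) and replicate 2 (right). Empty windows made up 16.7% and 14.8% of 2L, against 12.6% and 11.8% of 3L and 3R.

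Measured by the exact ends of the clusters, the longest stretch of 2L free of clusters in both replicates spanned 398.6 kb, from 15771028 to 16169589. It was followed by 324.0 kb from 14685692 to 15009719, 319.1 kb from 1181218 to 1500361 and 266.9 kb from 4486829 to 4753777. In all, 35 stretches of 100 kb or more were free in both replicates and summed to 6.16 Mb, or 29.4% of the described stretch. They were not all free in the set list, which placed 4 clusters over 3.52 kb in the first of them, 5 over 5.01 kb in the second, 4 over 5.20 kb in the third and 8 over 13.2 kb in the fourth. Whether reads can be aligned uniquely within these stretches was not tested.

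One of the widest domains of the arm ended directly at such a stretch. In replicate 1 a cluster of 15.3 kb with a score of 1.11 was followed by 452.7 kb without any cluster, from 16917164 to 17369875, the longest gap of that list. In replicate 2 the cluster before the gap measured 7.79 kb and scored 1.22, and the 452.7 kb held a single cluster, 1.48 kb wide, which ended a free stretch of 245.9 kb. The set list held 10 clusters over 12.5 kb there. At the other 7 of the 8 longest free stretches, the flanking clusters measured 1.35 to 6.01 kb. Around the longest, from 15771028 to 16169589, they measured 2.76 and 2.26 kb in replicate 1 and 2.62 and 2.25 kb in replicate 2.

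The widest H3K27me1 domains of 2L were taken from the set list, as the 10 widest clusters that overlapped both replicates. They measured 25.4 to 42.3 kb, and because they were required to overlap the replicates, from which that list was made, their coverage in the replicates is no separate check of them. The widest, 42.3 kb from 8626498 to 8668770, was covered to 73.3% by 7 clusters in replicate 1 and to 76.5% by 11 clusters in replicate 2, with single clusters of at most 11.9 and 10.7 kb. The next, 30.5 kb from 7936978 to 7967456, was covered to 81.0% by 5 clusters and to 83.0% by 4.

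The third, 28.4 kb from 16888762 to 16917146, was the domain beside the 452.7 kb gap. A pair of clusters in each replicate covered it to 99.7% and 92.3%, and its set score of 1.20 was the highest of the 10. The domain from 1884876 to 1911470, 26.6 kb, had the lowest mean coverage of the 10, with 6 clusters in each replicate over 72.4% and 56.0%, a mean of 64.2% ± 11.6 (SD, n = 2). That from 13572304 to 13598798, 26.5 kb, had the lowest set score, 0.58, and 7 clusters in each replicate over 83.7% and 70.8%.

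The domain from 7498388 to 7524478, 26.1 kb, was filled to 95.6% by replicate 1 and to 91.4% by replicate 2. That from 9177510 to 9203454, 25.9 kb, was covered to 93.2% and 89.7%, and that from 2889052 to 2914996, also 25.9 kb, to 82.5% and 83.9%. The domain from 5183834 to 5209502 was 1 cluster of 25.6 kb in replicate 1, the only one of the 10 met by a single cluster, and 3 clusters in replicate 2. The last, from 9221910 to 9247324, was covered to 97.3% and 88.7%. In both replicates clusters filled more than 50% of each of the 10, and 7 were covered more in replicate 1.

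**Figure D4:**
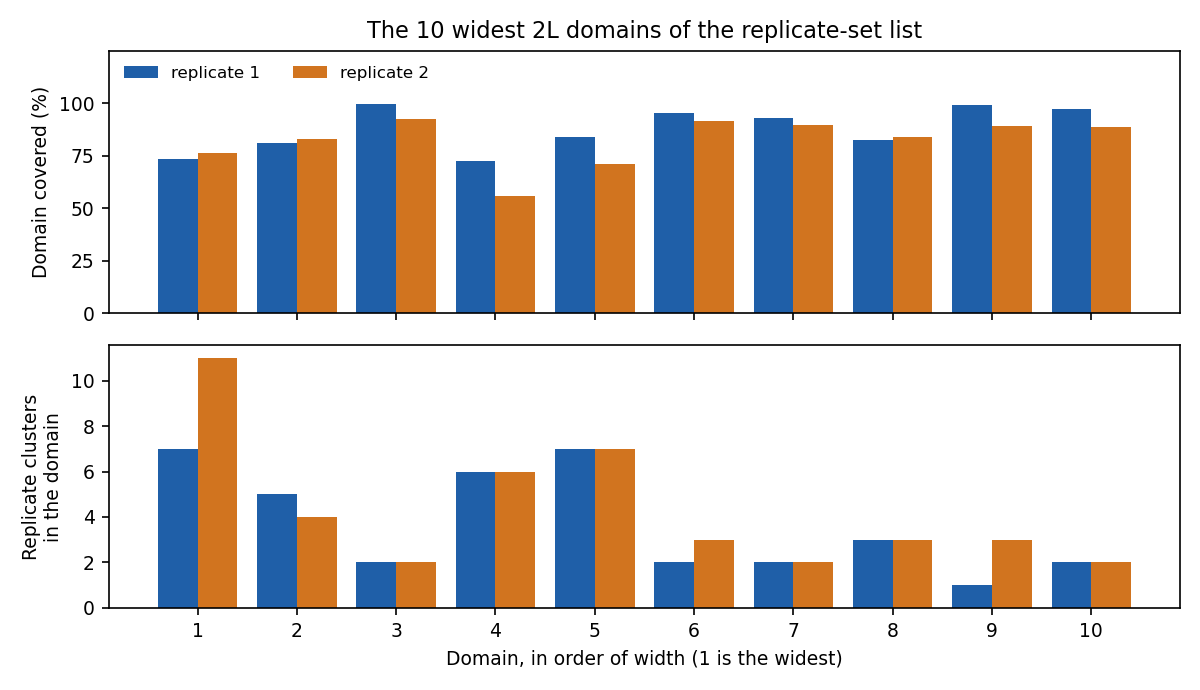
Share of each of the 10 widest 2L domains of the set list covered by clusters of ChIP replicates 1 and 2 (top, %) and the number of replicate clusters in it (bottom), with domains in order of width. Coverage ran from 56.0% to 99.7%, and the widest domain was split into 7 and 11 clusters.

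The highest scores were taken over clusters that overlapped 1-to-1 between the replicates, which leaves out clusters that were in pieces in the other replicate, among them the main clusters of several of the widest domains. Of the 10 pairs with the highest mean score, 6 were 10 kb or wider in both replicates. The first pair, from 11508699 to 11516653 in replicate 1, was 7.96 kb wide and scored 1.63 there and 1.59 in replicate 2. The second, from 183046 to 199331, was 16.3 kb wide in replicate 1 and 17.0 kb in replicate 2 and scored 1.65 and 1.43. The third, from 16334419 to 16350076, scored 1.54 and 1.39.

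Of the narrower pairs, the one from 6481579 to 6487529 was 5.95 kb wide in both replicates and scored 1.49 and 1.39, and that from 16657175 to 16662674 was 5.50 and 5.49 kb wide and scored 1.40 and 1.43. The pair from 224504 to 246831 scored 1.41 and 1.39, and at 22328 bp in replicate 1 and 21050 bp in replicate 2 it was the third widest 2L cluster of replicate 1 and the widest of replicate 2. The pairs from 5907652 to 5920557, from 298381 to 304668, from 19740186 to 19756314 and from 17963381 to 17974565 completed the 10, with mean scores of 1.37 to 1.39. Of the 10, 3 lay in the first 400 kb of the arm, which held 22 of the 686 pairs, a count chosen after the values were seen. In 7 of the 10 the score was higher in replicate 1.

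Most 2L clusters of either replicate had a counterpart in the other. Of the 1060 clusters of replicate 1, 887 (83.7%) shared at least 1 base with a cluster of replicate 2, against 80.3% over all sequences of the list, and 84.4% on 3L and 84.3% on 3R. Of the 1115 clusters of replicate 2, 912 (81.8%) were found in replicate 1, against 82.4% over all sequences, and 82.5% on 3L and 82.6% on 3R. The 2L shares lay near those of the whole lists. By length, 3.28 Mb was covered in both replicates, which was 70.7% of the 4.64 Mb covered in either, against 70.5% on 3L and 72.1% on 3R.

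Every 2L cluster without a counterpart in the other replicate was narrower than 5 kb. In replicate 1, all 179 clusters of 5 to 10 kb and all 50 broad ones had a counterpart, and in replicate 2 all 155 and all 39 did. Between 2 and 5 kb the share found was 92.6% of 512 clusters in replicate 1 and 94.7% of 563 in replicate 2. Under 2 kb it was 57.7% of 319 clusters (exact 95% interval 52.1% to 63.2%) in replicate 1 and 51.7% of 358 (46.4% to 57.0%) in replicate 2. Wider regions overlap something more easily, and that part of the difference was not tested. The clusters without a counterpart, 173 in replicate 1 and 203 in replicate 2, had median widths of 1629 and 1556 bp and held 7.51% and 8.73% of the summed width.

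The widest clusters without a counterpart measured 3.39 kb in replicate 1, from 5154145 to 5157536, and 4.31 kb in replicate 2, from 9747669 to 9751973. They scored 0.58 and 0.69, and the nearest cluster of the other replicate lay 1.92 kb and 9.06 kb away. The others of the 5 widest in replicate 1 measured 2.98 to 3.31 kb. In replicate 2 the second widest, 3.81 kb from 335315 to 339124, lay only 20 bp from a replicate 1 cluster. The cluster of replicate 2 from 1623171 to 1626206 (3.04 kb) scored 1.07, above the other 9. All 10 of these clusters were overlapped by a cluster of the set list.

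Where a cluster had exactly 1 counterpart, its ends and its score were close in both replicates. There were 686 such pairs on 2L. The starts differed by a median of 193 bp and the ends by 193.5 bp, and 77.4% of starts and 77.0% of ends lay within 500 bp. Replicate 2 was the wider one in 325 pairs (47.4%) and the higher-scoring one in 319 (46.5%). The score difference, replicate 2 minus replicate 1, had a median of -0.01 and an SD of 0.11 between pairs. Across pairs, Spearman's rho was 0.824 for scores and 0.867 for widths, against 0.851 and 0.839 on 3L and 0.862 and 0.867 on 3R. These are descriptions over regions that share 2 libraries.

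The rank order of scores was closest for the wide pairs. For 94 pairs with a mean width of 6 kb or more, the widths differed by a median of 4.07% and the scores had a rho of 0.896. For 260 pairs of 3 to 6 kb these values were 8.58% and 0.743, and for 332 pairs under 3 kb they were 15.1% and 0.494. The SD of the score difference was much the same, at 0.09 for the widest pairs, 0.11 for the middle ones and 0.11 for the narrowest. The narrow pairs had lower scores, with medians of 0.63 and 0.62 in the replicates, against 1.03 and 1.00 for the widest pairs. The spread of scores within each class was not compared.

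**Figure D5:**
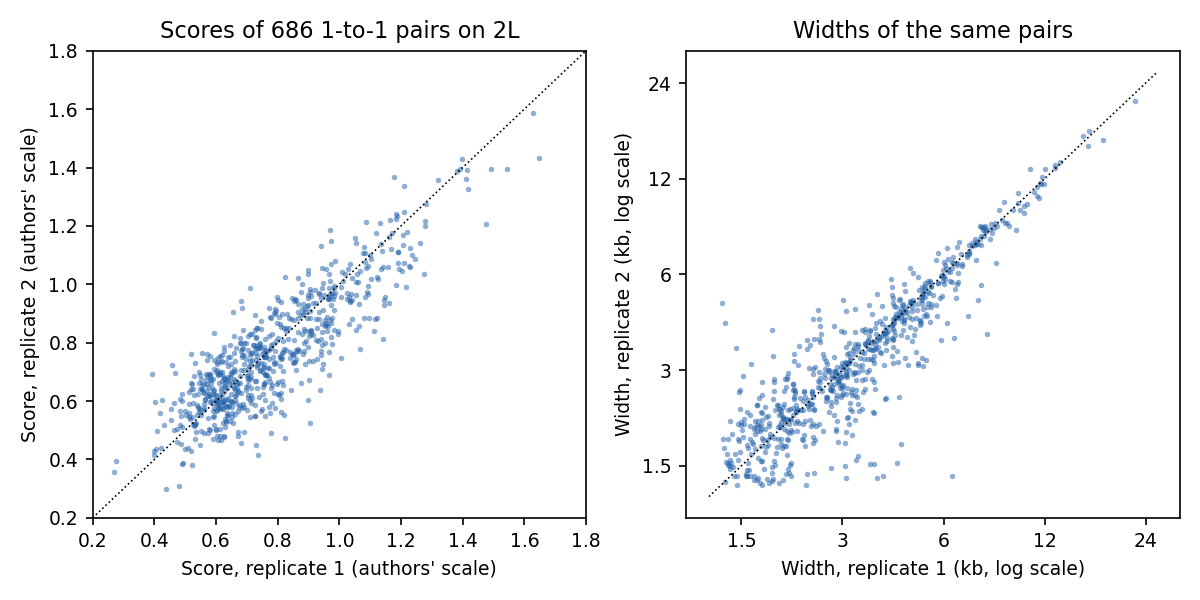
Scores (left, authors' scale) and widths (right, kb on log axes) of the 686 pairs of 2L clusters that overlapped 1-to-1, with replicate 1 on the horizontal and replicate 2 on the vertical axis and a dotted line where both are equal. Points lie around the line (rho 0.824 for scores and 0.867 for widths), and the widths of pairs of 6 kb or more lie closest to it.

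The largest score differences among the pairs were towards a lower score in replicate 2, and the largest in the other direction was smaller. The pair from 8331647 to 8333983 scored 0.53 in replicate 2 and 0.91 in replicate 1, and that from 10517510 to 10520375 scored 0.47 and 0.82 in the same order. Both clusters were also narrower in replicate 2, at 1301 and 1926 bp, against 2337 and 2866 bp in replicate 1. The pair from 6658748 to 6662500 scored 0.81 in replicate 2 and 1.14 in replicate 1, with widths of 3612 and 3753 bp. The largest difference towards a higher score in replicate 2 was between 0.69 in replicate 2 and 0.39 in replicate 1, in a pair 2871 bp wide in replicate 2 and 1515 bp wide in replicate 1.

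Some clusters held whole in one replicate were in pieces in the other. On 2L, 87 of the 1060 clusters of replicate 1 overlapped 2 or more clusters of replicate 2, and 75 of the 1115 clusters of replicate 2 overlapped 2 or more of replicate 1. Among the broad clusters, 22 of 50 in replicate 1 and 10 of 39 in replicate 2 did so. Of the 87 and 75 clusters in pieces, of any width, 14 in replicate 1 and 4 in replicate 2 met 3 or more pieces. The widest of replicate 1, from 5183729 to 5209325, met 3 clusters of replicate 2 that covered 89.3% of it. The next, from 7498495 to 7521553, also met 3, over 92.8%, and that from 12485242 to 12503749 met 5, over 88.9%. In the other direction the replicate 2 cluster from 9179830 to 9199522 met 2 clusters of replicate 1 over 98.6% of its length, and that from 16888885 to 16907308 met 2 over nearly its whole length (99.97%).

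At window scale the replicates gave similar counts. Of the 210 windows of 100 kb, 80 (38.1%) held equal numbers and 186 (88.6%) differed by at most 2, and Pearson's r between the counts was 0.912 across windows, which are not independent. Counts of 4 or more apart occurred in 14 windows, and the largest difference was 6. In the window from 9500001 to 9600000, replicate 2 held 11 clusters over 37.8% and replicate 1 held 5 over 33.9%. In that from 4000001 to 4100000, replicate 2 held 18 over 35.3% and replicate 1 held 12 over 32.9%. In that from 15700001 to 15800000, replicate 2 held 11 over 29.7% and replicate 1 held 5 over 21.9%. The covered share per window had an r of 0.983, which was higher than that of the counts. Over the 21 blocks of 1 Mb, replicate 2 had more clusters in 14 and a lower covered share in 14.

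The authors' set list added many narrow clusters on 2L to those of the replicates. It covered 28.8% of the described stretch with 1600 clusters, whose median width was 2437 bp and median score 0.47, and took in 1059 of the 1060 clusters of replicate 1 and 1114 of the 1115 of replicate 2. Of its clusters, 739 (46.2%) overlapped both replicates, 146 overlapped replicate 1 only, 159 overlapped replicate 2 only and 556 (34.8%) overlapped neither. The clusters in both replicates had a median width of 4703 bp and a median score of 0.65, and held 74.5% of the list's summed width. For those found in neither, the median width was 1323 bp and the median score 0.41. None of them was wider than 4557 bp or scored above 0.86. The narrowest 2L cluster of the set list measured 1001 bp, against 1302 bp in replicate 1 and 1301 bp in replicate 2. The lists thus differ in their smallest width. How many of the added clusters were narrower than any in the replicate lists was not counted. Genes are not named for any of these regions, because a gene annotation of release 5 was not used here.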

How the data were processed

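Chromatin immunoprecipitation with sequencing measured H3K27me1 in 2 ChIP libraries, each with 1 Input library. The authors deposited 3 lists of clusters, 1 per replicate and 1 for the replicate set, whose score per cluster is the authors' own and has no stated unit. Coordinates are of FlyBase release 5, per the file headers, and Bowtie 0.12.7 is named per the submitters' processing notes. The caller and its threshold, and how the set list was made from the replicates, were not given in the sources used here. Read depth is unknown.

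Clusters of 2L with a midpoint from 1 to 21000000 were compared with all clusters of 3L and 3R. Starts and ends are other deposited values, as given per the file headers. Clusters were shared if at least 1 base overlapped. Windows of 100 kb counted midpoints (10 or more: dense). The authors' set list has no n or SD. Intervals are exact (Clopper-Pearson) at 95%. The work used pandas 2.3.3 and numpy 2.4.6 under Python 3.11.15, scipy 1.17.1 for intervals and correlations, and matplotlib 3.10.9 for figures. The functions for overlap, covered length and merging were tested on simulated data, and the counting of midpoints per window was not. The regions and the values reported were chosen with earlier results of these data known. Regions named individually were taken by fixed rules of rank: the 10 widest set clusters in both replicates, the windows with most clusters, runs of empty windows, the highest-scoring 1-to-1 pairs, the widest clusters without a counterpart or in pieces, the longest runs, and the most and least covered blocks. The 7 Mb divisions of the arm, the classes of width and of nearest neighbour, the clusters beside long gaps, the pairs with the largest score differences and the most differing windows were chosen after the values were seen. The gene table at hand is of release 6, so no gene was assigned and no sequence is shown.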

Additional observations from a re-analysis of the deposited data

How the results depend on the processing

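No paired analysis was possible because the results come from no test and Input libraries have no cluster list here. Values below are means of both replicates, or counts in both. With only the upper 50% of each list by score, 2L held 489 clusters over 12.5%, with a median width of 4447.5 bp, a median score of 0.87, a median gap of 10514 bp and 9.63% of gaps under 1 kb, 46 windows were empty and 0 were dense, 81.1% of clusters were shared, and the score rho was 0.758. Merging gaps under 1000 bp gave 19.4% covered, a median width of 3518.5 bp, a median gap of 5323 bp and 82 broad clusters, against 44.5 before. Over the whole arm 18.5% was covered and the median gap was 3404.5 bp. Dense windows, 18 as reported, numbered 49 at 8 or more clusters, 12 at 12 or more, and 26 with windows shifted by 50 kb. Counted from 1 replicate alone they numbered 30 in replicate 1 and 34 in replicate 2, which asks for less by construction. Requiring 50% of both clusters to be shared gave 68.4% shared and a score rho of 0.839. The r of window counts was 0.885 at 50 kb and 0.939 at 200 kb. The ratios of 2L to 3L and 3R together stayed below 1 in each setting tried. Without a centromere-proximal stretch of the third-chromosome arms they were 0.911 for clusters per Mb and 0.880 for covered share. With the upper 50% by score the covered share had 0.876. Depth is unknown, so how far it limits narrow clusters could not be given.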
